A study of Mus musculus with 12 samples.

Results

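The cyclins that drive cells through G1 and the inhibitors of their kinases were followed in the testes of 7-day-old mice that lacked Sohlh1 or Sohlh2, transcription factors of spermatogonia. The set was the D-type cyclins Ccnd1, Ccnd2 and Ccnd3, the E-type cyclins Ccne1 and Ccne2, the CIP/KIP inhibitors Cdkn1a, Cdkn1b and Cdkn1c, and the INK4 inhibitors Cdkn2c and Cdkn2d. Every probe set annotated to exactly 1 of these 10 symbols was taken. This gave 23 of the 45037 probe sets that were not array controls, and 10 of the 18193 genes with a probe set of a single symbol. Ccnd2 had 7 probe sets, Ccnd1 and Ccnd3 had 3 each, Ccne1, Cdkn1a and Cdkn1b had 2 each, and the other genes had 1 each.

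The 12 Affymetrix arrays comprised 4 labelled Sohlh1 KO (genotype Sohlh1-/-), 4 labelled Sohlh2 KO (Sohlh2-/-) and 4 labelled wild type. All were from mice of hybrid C57BL/6 and 129S5/SvEvBrd background at postnatal day 7. Each array held RNA of whole testis from a pool of 3 testes, 1 from each of 3 animals, so the p-values measure the spread between such pools. How the alleles were made is not given in the sources used here. Values are signals, linear intensities that the authors had scaled so that the trimmed mean of every array was 500.003.

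D-type cyclins bind CDK4 and CDK6 and begin the phosphorylation of the retinoblastoma protein, which frees E2F transcription factors. E-type cyclins then activate CDK2 and carry the cell into S phase. INK4 proteins block CDK4 and CDK6, while CIP/KIP proteins bind cyclin and kinase together. In the postnatal mouse testis cyclin D2 appears as spermatogonia start to differentiate, and p27, the product of Cdkn1b, marks Sertoli cells that leave the cell cycle.

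Some arrays stood apart. Sohlh1 had signals of 104, 61.0, 50.2 and 595 on the arrays labelled Sohlh1 KO 2, 3, 4 and 5, 126, 465, 494 and 563 on those labelled Sohlh2 KO 1, 3-1, 4 and 5, and 1125 to 1233 in wild type. Sohlh2 had 1556, 1783, 1605 and 94.4 on the Sohlh1 KO arrays, 1847, 157, 93.6 and 73.2 on the Sohlh2 KO arrays, and 885 to 1200 in wild type. The arrays labelled Sohlh1 KO 5 and Sohlh2 KO 1 therefore went against their labels, and the groups below are the groups as labelled. The actin control's ratio of 3′ to 5′ signal, a measure of RNA or labelling length, was 2.10 on Sohlh1 KO 2 and 3.56 on Sohlh2 KO 1, and 1.30 to 1.45 on the other arrays. For each tested gene, values without all 3 of these arrays follow the values with them. Sohlh1 KO then rests on its arrays 3 and 4 alone, and Sohlh2 KO on 3-1, 4 and 5.

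Markers of the testis cell types were present, and no listed marker was below the detection filter on all arrays. The summed signal of 10 markers of differentiating spermatogonia, a list that includes Sohlh1 and Sohlh2, was 7874 to 9137 in Sohlh1 KO, 7178 to 10970 in Sohlh2 KO and 14093 to 18549 in wild type. Of these 10 genes, 6 fell in Sohlh1 KO and 5 in Sohlh2 KO. Crabp1, Dmrtb1, Esx1, Kit and Lmo1 fell in both mutants. The other gene that fell in Sohlh1 KO was Sohlh1, the gene targeted there, so its fall was set by the design. For 13 markers of germ cells at any stage the sums were 35107 to 40651 in Sohlh1 KO, 37421 to 41408 in Sohlh2 KO and 37999 to 42710 in wild type, and 1 of the 13 genes fell and 2 rose in each mutant. For 10 markers of undifferentiated spermatogonia they were 8488 to 11253 in Sohlh1 KO, 9770 to 11764 in Sohlh2 KO and 8182 to 8843 in wild type, with 2 genes that rose and none that fell in each mutant. For 10 Sertoli cell markers they were 89770 to 101155 in Sohlh1 KO, 84282 to 98690 in Sohlh2 KO and 77289 to 90906 in wild type, and none of these 10 genes passed the test. No listed gene of Leydig cells, peritubular myoid cells, endothelium or macrophages passed either. In bulk tissue, fewer cells of a type and less RNA per cell cannot be told apart.

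Of the 10 genes, Ccnd1 and Ccne2 fell in both mutants and no other member passed the test in any comparison. At least 1 probe set of each gene was bright enough to test, 21 probe sets in all. In Sohlh1 KO against wild type 4 of the 21 passed limma's test at an adjusted p under 0.05, all lower, and they belonged to Ccnd1 and Ccne2. Over all 28694 probe sets tested, 2.09% passed in that comparison 1.38% passed as lower and 0.707% as higher. In Sohlh2 KO against wild type 2 of 21 passed, both lower, 1 of Ccnd1 and 1 of Ccne2, while 1.55% of all probe sets passed 0.944% passed as lower and 0.606% as higher. Both comparisons use the same 4 wild-type arrays, so they are not independent of each other. With the 2 arrays that went against their labels left out, the counts were 4 and 2, and with the 2 arrays of high 3′ to 5′ ratio left out they were also 4 and 2. Without all 3, Sohlh1 KO had 3 lower probe sets, of Ccnd1 and Ccne2, and 1 higher, of Cdkn1c, and Sohlh2 KO had the same count of 2 lower.

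**Figure D1:**
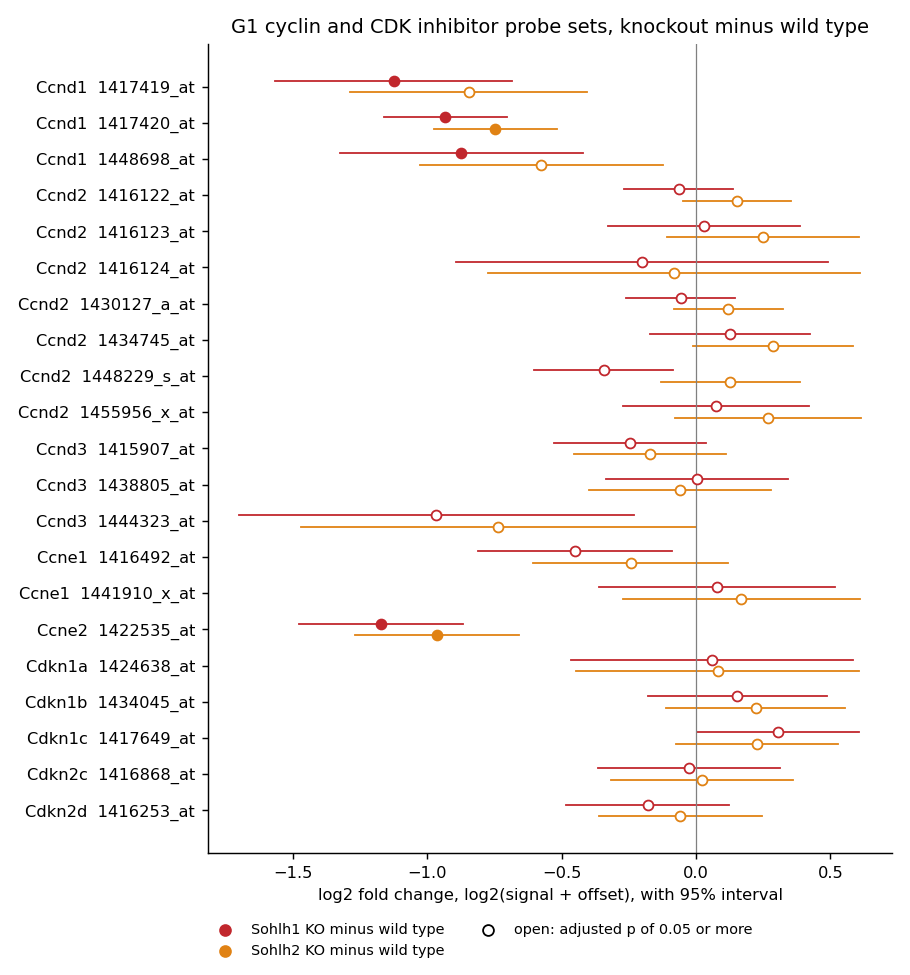
Log2 fold changes of the 21 tested probe sets with 95% intervals, Sohlh1 KO minus wild type in red and Sohlh2 KO minus wild type in orange. Filled points passed limma's test at an adjusted p under 0.05: 3 probe sets of Ccnd1 and that of Ccne2 in Sohlh1 KO, and 1 probe set of each gene in Sohlh2 KO.

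Cyclin D1 (Ccnd1) connects growth factor signals to CDK4 and CDK6. Its brightest probe set, 1417420_at, had signals of 731, 736, 826 and 952 in Sohlh1 KO, 793, 968, 936 and 991 in Sohlh2 KO, and 1529, 1607, 1591 and 1482 in wild type. Every mutant array was below every wild-type array, and the mutant ranges overlapped each other. The means were 811 ± 104 in Sohlh1 KO, 922 ± 89.1 in Sohlh2 KO and 1552 ± 57.7 in wild type (SD, n = 4 each), so the mutants held 52.3% and 59.4% of the wild-type mean. On the log2 scale used for testing, Ccnd1 fell by 0.93 (SE 0.11, limma adjusted p = 0.000377) in Sohlh1 KO and by 0.75 (SE 0.11, limma adjusted p = 0.00248) in Sohlh2 KO. Without the 3 doubted arrays the changes were -0.98 (limma adjusted p = 0.000181) and -0.68 (limma adjusted p = 0.000819).

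The other Ccnd1 probe sets were noisier. For 1417419_at the signals were 258, 378, 324 and 373 in Sohlh1 KO, 343, 348, 549 and 402 in Sohlh2 KO, and 802, 473, 885 and 871 in wild type. The Sohlh1 KO arrays lay below all wild-type arrays, whereas the Sohlh2 KO array with 549 lay above the wild-type array with 473. The log2 change was -1.12 (SE 0.21, limma adjusted p = 0.0114) in Sohlh1 KO and -0.84 (SE 0.21, limma adjusted p = 0.0577) in Sohlh2 KO. It passed in Sohlh2 KO in 4 of 29 alternative analyses, among them leaving out wild type 4 (limma adjusted p = 0.0136) or Sohlh2 KO 4. For 1448698_at the signals were 481, 465, 453 and 576 in Sohlh1 KO, 762, 461, 678 and 569 in Sohlh2 KO, and 691, 659, 1197 and 1265 in wild type. Wild type 5 and 6 stood well above wild type 3 and 4 here, and Sohlh2 KO overlapped the wild-type range. The log2 change was -0.87 (SE 0.21, limma adjusted p = 0.0480) in Sohlh1 KO and -0.58 (SE 0.21, limma adjusted p = 0.235) in Sohlh2 KO. Leaving out wild type 5 or wild type 6 ended the Sohlh1 KO call for both of these probe sets (limma adjusted p up to 0.0522 for 1417419_at and 0.161 for 1448698_at), and 2 members then passed in place of 4. The call of 1448698_at was also lost without any 1 of the 4 Sohlh1 KO arrays, without Sohlh2 KO 4 or Sohlh2 KO 5, and without all 3 doubted arrays. Without these 3, 1417419_at changed by -1.04 in Sohlh1 KO (limma adjusted p = 0.0412) and differed by -0.77 in Sohlh2 KO (limma adjusted p = 0.0693). For 1448698_at the differences were then -0.97 (limma adjusted p = 0.0646) in Sohlh1 KO and -0.68 (limma adjusted p = 0.127) in Sohlh2 KO.

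Cyclin E2 (Ccne2) activates CDK2 at the entry to S phase and showed the largest log2 change among the members in each mutant. Its probe set, 1422535_at, had signals of 321, 315, 388 and 320 in Sohlh1 KO, 394, 327, 406 and 436 in Sohlh2 KO, and 611, 847, 930 and 738 in wild type. The lowest wild-type array, with 611, was above all 8 mutant arrays. The means were 336 ± 35.0 in Sohlh1 KO, 391 ± 46.0 in Sohlh2 KO and 781 ± 138 in wild type (SD, n = 4 each), which put the mutants at 43.0% and 50.0% of the wild-type mean. Ccne2 fell by 1.17 on the log2 scale (SE 0.14, limma adjusted p = 0.000495) in Sohlh1 KO and by 0.96 (SE 0.14, limma adjusted p = 0.00275) in Sohlh2 KO. Without the 3 doubted arrays the changes were -1.11 (limma adjusted p = 0.00610) and -0.97 (limma adjusted p = 0.00528). The drop in Ccnd1 and Ccne2 went with the lower summed signal of the differentiating spermatogonia markers given above. That sum includes the targeted genes Sohlh1 and Sohlh2. The part of cell numbers in the drop was not tested.

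**Figure D2:**
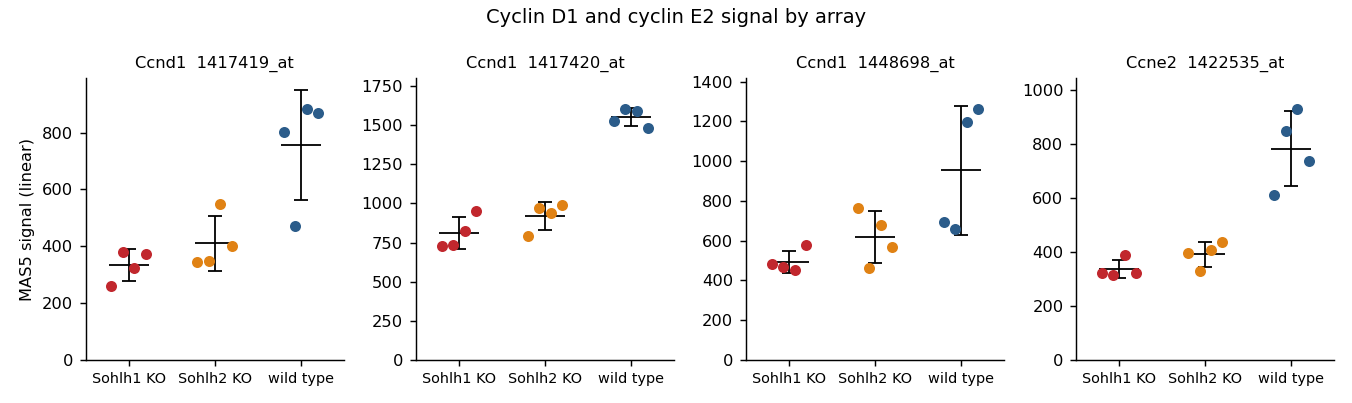
Signal (linear, axis from 0) of the 3 Ccnd1 probe sets and the Ccne2 probe set on each of the 12 arrays, with Sohlh1 KO, Sohlh2 KO and wild type from left to right, and the mean and SD in black. For Ccnd1 1417420_at the mutant arrays lie between 731 and 991 and the wild-type arrays between 1482 and 1607. For Ccne2 they lie between 315 and 436 and between 611 and 930.

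Cyclin E1 (Ccne1), the other partner of CDK2, did not pass. Probe set 1416492_at had signals of 132, 196, 173 and 181 in Sohlh1 KO, 227, 181, 201 and 182 in Sohlh2 KO, and 184, 224, 274 and 272 in wild type. Both mutant ranges overlapped that of wild type. Its log2 difference was -0.45 (SE 0.17, limma adjusted p = 0.219) in Sohlh1 KO and -0.24 (limma adjusted p = 0.570) in Sohlh2 KO. The brighter probe set, 1441910_x_at, had a log2 difference of 0.08 in Sohlh1 KO and 0.17 in Sohlh2 KO (limma adjusted p = 0.901 and 0.767). It was highest on the 2 arrays of high 3′ to 5′ ratio, at 528 on Sohlh1 KO 2 and 559 on Sohlh2 KO 1, against 288 to 395 on the other 10 arrays. Without these 2 arrays its differences were -0.09 in Sohlh1 KO and 0.00 in Sohlh2 KO. Without all 3 doubted arrays they were -0.04 in Sohlh1 KO and 0.00 in Sohlh2 KO, and those of 1416492_at were -0.33 in Sohlh1 KO and -0.31 in Sohlh2 KO, none of which passed. The Ccne1 probe sets thus disagreed, and their correlation over the 12 arrays was -0.16 (Pearson, log2 scale).

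Cyclin D2 (Ccnd2), the D-type cyclin tied to spermatogonial differentiation, did not pass at any of its 7 probe sets. The brightest, 1416122_at, had signals of 6339, 6320, 6806 and 6382 in Sohlh1 KO, 7973, 7844, 7832 and 6492 in Sohlh2 KO, and 7678, 6646, 6960 and 5867 in wild type. All 4 Sohlh1 KO arrays lay inside the wild-type range, and 3 of the Sohlh2 KO arrays lay above it. The means were 6462 ± 231 in Sohlh1 KO, 7535 ± 698 in Sohlh2 KO and 6788 ± 751 in wild type (SD, n = 4 each). The log2 difference was -0.06 (95% interval -0.27 to 0.14, limma adjusted p = 0.792) in Sohlh1 KO and 0.15 (95% interval -0.05 to 0.35, limma adjusted p = 0.519) in Sohlh2 KO. At this probe set a fall of the size seen at the brightest Ccnd1 probe set lay outside both intervals. That did not hold for all Ccnd2 probe sets. At 1416124_at the 95% intervals were -0.89 to 0.49 in Sohlh1 KO and -0.77 to 0.61 in Sohlh2 KO. The latter included the Ccnd1 change of -0.75 in Sohlh2 KO.

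Over the 7 Ccnd2 probe sets the group means were 78.2% to 109% of wild type in Sohlh1 KO and 104% to 123% in Sohlh2 KO. The log2 differences were -0.34 to 0.13 in Sohlh1 KO and -0.08 to 0.29 in Sohlh2 KO. Probe set 1434745_at had 5530, 4356, 4684 and 4724 in Sohlh1 KO, 6963, 5555, 4858 and 4424 in Sohlh2 KO, and 5407, 4452, 4112 and 3792 in wild type. All 3 groups overlapped there, and the log2 differences were 0.13 (limma adjusted p = 0.719) in Sohlh1 KO and 0.29 (limma adjusted p = 0.396) in Sohlh2 KO. At 1430127_a_at the means were 4029 ± 417 in Sohlh1 KO, 4549 ± 422 in Sohlh2 KO and 4178 ± 241 in wild type, and at 1416123_at they were 185 ± 39.3 in Sohlh1 KO, 215 ± 26.9 in Sohlh2 KO and 179 ± 23.5 in wild type (SD, n = 4 each). The lowest of the Sohlh1 KO means relative to wild type was that of 1448229_s_at, at 711 ± 67.4, against 909 ± 127 in wild type (log2 difference -0.34, SE 0.12, limma adjusted p = 0.185). The 7 probe sets did not all move together over the arrays. Sohlh2 KO 1, with the highest 3′ to 5′ ratio, had 6963 at 1434745_at, above the other 11 arrays at 3792 to 5555. The same array had 88.1 at 1416124_at, below the other 11 arrays at 145 to 330. Over the 12 arrays 1434745_at correlated at 0.92 with 1455956_x_at, at 0.70 with 1416122_at and at -0.68 with 1416124_at (Pearson, log2 scale, a description). The highest correlation of 1416123_at was 0.80, with 1430127_a_at, and both correlations of -0.62 and below were of 1416124_at. Without the 2 arrays of high ratio the log2 differences at 1434745_at were 0.06 in Sohlh1 KO and 0.16 in Sohlh2 KO, and no Ccnd2 probe set passed. Without all 3 doubted arrays the 7 differences were -0.24 to 0.20 in Sohlh1 KO and 0.07 to 0.33 in Sohlh2 KO, again with none passing, and those of 1416122_at were -0.04 in Sohlh1 KO and 0.12 in Sohlh2 KO.

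**Figure D3:**
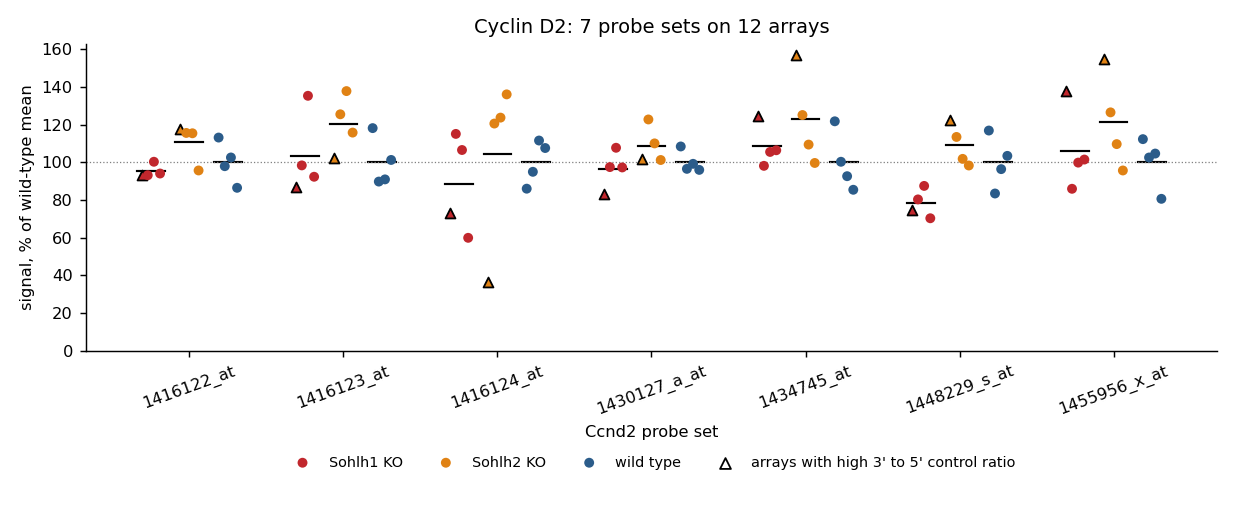
Signal of the 7 Ccnd2 probe sets on each array as a percentage of the probe set's wild-type mean, with Sohlh1 KO, Sohlh2 KO and wild type from left to right and each group's mean as a black line. Triangles mark the 2 arrays of high 3′ to 5′ ratio. Single arrays span 59.9% to 138% in Sohlh1 KO, 36.4% to 157% in Sohlh2 KO and 80.6% to 122% in wild type.

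Cyclin D3 (Ccnd3), the remaining partner of CDK4 and CDK6, had signals of 1250, 1662, 1929 and 1533 in Sohlh1 KO, 1336, 1895, 1682 and 1770 in Sohlh2 KO, and 1807, 1923, 1777 and 1977 in wild type at its brightest probe set, 1415907_at. The lowest array of each mutant group was the array of high 3′ to 5′ ratio. The log2 difference was -0.25 (95% interval -0.53 to 0.04, limma adjusted p = 0.408) in Sohlh1 KO and -0.17 (limma adjusted p = 0.612) in Sohlh2 KO, and without these 2 arrays -0.14 and -0.07. At 1438805_at the differences were 0.00 in Sohlh1 KO and -0.06 in Sohlh2 KO. The dim probe set 1444323_at had 60.0, 49.4, 64.1 and 23.1 in Sohlh1 KO, 55.8, 27.8, 122 and 51.1 in Sohlh2 KO, and 105, 85.0, 138 and 97.4 in wild type. Its Sohlh1 KO arrays were all below wild type, yet it did not pass (log2 difference -0.97, SE 0.34, limma adjusted p = 0.191). Without all 3 doubted arrays no Ccnd3 probe set passed. The differences in Sohlh1 KO and Sohlh2 KO were then -0.06 and -0.07 at 1415907_at, -0.20 and -0.01 at 1438805_at, and -0.75 and -0.72 at 1444323_at. With 1444323_at, 5 of the 21 tested member probe sets had Sohlh1 KO and wild-type ranges that did not overlap, against 11.2% of all probe sets. For Sohlh2 KO it was 2 of 21, against 8.82% of all.

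None of the 5 CDK inhibitors passed in either mutant. Cdkn1c, which encodes p57, came nearest, with signals of 1191, 1528, 1427 and 1091 in Sohlh1 KO, 963, 1539, 1261 and 1214 in Sohlh2 KO, and 1007, 1110, 1120 and 958 in wild type. Its ranges overlapped between the groups. The means were 1309 ± 203 in Sohlh1 KO, 1244 ± 236 in Sohlh2 KO and 1049 ± 79.2 in wild type (SD, n = 4 each). The log2 difference was 0.31 (95% interval 0.01 to 0.61, limma adjusted p = 0.326) in Sohlh1 KO and 0.23 (limma adjusted p = 0.518) in Sohlh2 KO. Without all 3 doubted arrays it was 0.49 in Sohlh1 KO and passed (limma adjusted p = 0.0493), and 0.34 in Sohlh2 KO (limma adjusted p = 0.102). That Sohlh1 KO call rested on arrays 3 and 4, the highest of their group at 1528 and 1427. Cdkn1c passed in Sohlh1 KO in only 1 of 30 alternatives, and that one was added after the data were seen.

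Cdkn1a, which encodes p21, had signals of 196, 173, 218 and 165 in Sohlh1 KO, 283, 162, 104 and 267 in Sohlh2 KO, and 188, 201, 170 and 160 in wild type at 1424638_at. Sohlh2 KO held both the highest and the lowest array. The log2 differences were 0.06 (95% interval -0.47 to 0.58) in Sohlh1 KO and 0.08 (95% interval -0.44 to 0.61) in Sohlh2 KO, and without all 3 doubted arrays 0.11 in Sohlh1 KO and -0.10 in Sohlh2 KO. Its other probe set, 1421679_a_at, was at 3.34 to 18.0 on the 12 arrays and was too dim to test. Cdkn1b had signals of 454, 643, 764 and 609 in Sohlh1 KO, 640, 604, 591 and 719 in Sohlh2 KO, and 671, 531, 547 and 449 in wild type at 1434045_at. These ranges overlapped, and the log2 differences were 0.15 (95% interval -0.18 to 0.49) in Sohlh1 KO and 0.22 (95% interval -0.11 to 0.55) in Sohlh2 KO, and without all 3 doubted arrays 0.36 in Sohlh1 KO and 0.22 in Sohlh2 KO. Its probe set 1419497_at passed the detection filter on 1 array and was not tested.

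The INK4 inhibitors had no call in either mutant, with intervals that included changes of either sign. Cdkn2c, which encodes p18, had signals of 1565, 1033, 1098 and 1105 in Sohlh1 KO, 1301, 1603, 1002 and 1078 in Sohlh2 KO, and 1398, 1194, 1188 and 1066 in wild type. Sohlh1 KO 2 stood above the other 3 arrays of its group, all ranges overlapped, and the log2 differences were -0.03 (95% interval -0.37 to 0.31) in Sohlh1 KO and 0.02 (95% interval -0.32 to 0.36) in Sohlh2 KO. With the 3 doubted arrays left out the Cdkn2c differences were -0.18 in Sohlh1 KO and -0.01 in Sohlh2 KO. Cdkn2d, which encodes p19 of this family, had 685, 1098, 1015 and 856 in Sohlh1 KO, 901, 856, 1046 and 1139 in Sohlh2 KO, and 1039, 1060, 1085 and 906 in wild type. Its lowest array was Sohlh1 KO 2, and the log2 differences were -0.18 (95% interval -0.48 to 0.12) in Sohlh1 KO and -0.06 (95% interval -0.36 to 0.25) in Sohlh2 KO. The Cdkn2d difference, without those arrays, turned to 0.05 in Sohlh1 KO and was -0.02 in Sohlh2 KO.

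**Figure D4:**
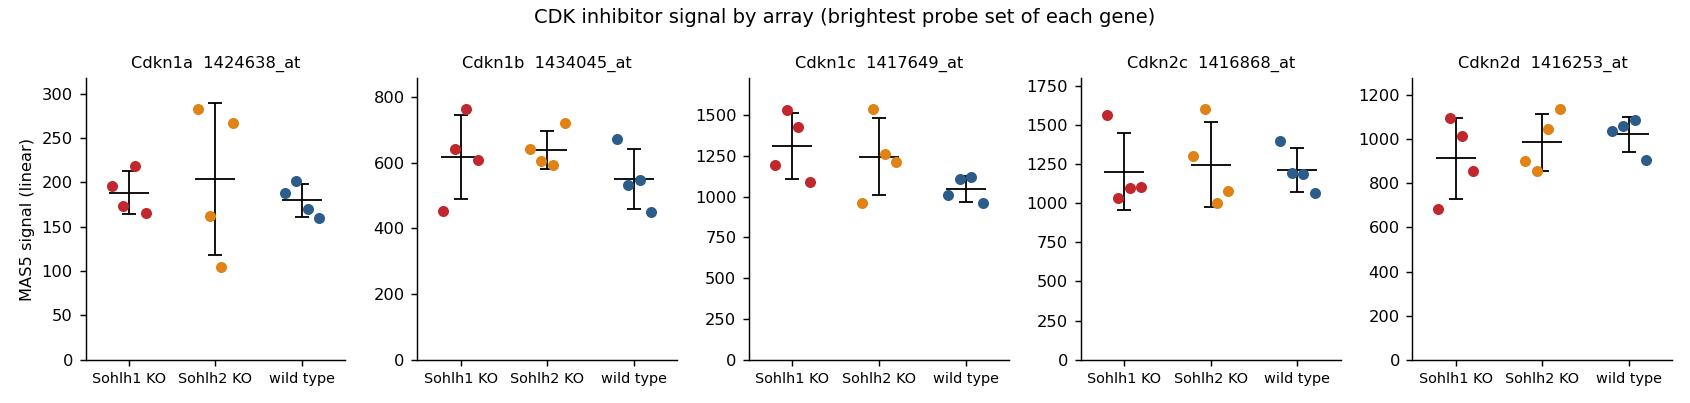
Signal (linear, each axis from 0) of the brightest probe set of the 5 CDK inhibitors on each of the 12 arrays, with Sohlh1 KO, Sohlh2 KO and wild type from left to right and the mean and SD in black. The groups overlap in every panel. For Cdkn1c the means are 1309, 1244 and 1049.

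Between the mutants, Sohlh2 KO minus Sohlh1 KO, none of the 21 probe sets passed limma's test, and 0% of all 28694 passed either (2 members and 767 of all had an unadjusted p under 0.05). Both groups hold an array that went against its label, so the direction of this contrast is that of the labels. The log2 difference was above 0 at 19 of the 21 member probe sets, with a median of 0.18 against 0.00 over all probe sets, of which 49.7% were above 0. The 21 are not independent, since 7 are of Ccnd2. Without all 3 doubted arrays 16 of the 21 were above 0, and Ccnd3 1415907_at, Cdkn1a, Cdkn1b, Cdkn1c and Cdkn2d were below. Ccnd1 1417420_at had a difference of 0.19 (95% interval -0.04 to 0.41) and Ccne2 0.21 (95% interval -0.10 to 0.51). The member with the smallest p was Ccnd2 1448229_s_at, with 1114, 1031, 925 and 893 in Sohlh2 KO against 679, 730, 795 and 639 in Sohlh1 KO, and 1062, 758, 876 and 940 in wild type. As labelled, the mutant ranges did not overlap at this probe set, the only member of which this was true, while 1.90% of all probe sets had such ranges. The 1114 was of Sohlh2 KO 1 and the 639 of Sohlh1 KO 5, the 2 arrays against their labels. With those 2 labels exchanged the ranges would overlap. The remaining arrays, at 893 to 1031 in Sohlh2 KO and 679 to 795 in Sohlh1 KO, did not overlap. The difference at 1448229_s_at was 0.47 (95% interval 0.21 to 0.73, unadjusted p = 0.00146 and adjusted p = 1.00 in limma). It was 0.37 without these 2 arrays and 0.31 without all 3 doubted arrays.

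The genes around these cyclins were read from lists with the brightest probe set of each gene. Of 13 kinases and activators, 1 fell in each mutant and none rose. It was Ccna2, cyclin A2 of S phase and G2, with means of 2710 ± 275 in Sohlh1 KO, 2785 ± 376 in Sohlh2 KO and 4395 ± 760 in wild type (SD, n = 4 each). Its log2 change was -0.68 (limma adjusted p = 0.0182) in Sohlh1 KO and -0.65 (limma adjusted p = 0.0275) in Sohlh2 KO. Leaving out any of wild type 4, 5 and 6 ended both calls (limma adjusted p up to 0.0735 in Sohlh1 KO and 0.100 in Sohlh2 KO), as did other single arrays. The kinases themselves did not pass: Cdk4 differed by 0.22 and 0.21, Cdk6 by -0.12 and -0.01, and Cdk2 by -0.18 and -0.21 in Sohlh1 KO and Sohlh2 KO. None of the 13 pocket proteins and E2F factors, the 4 other CDK inhibitors measured and the 14 turnover genes passed in either mutant. The largest difference among them was that of E2f2, at -0.82 (limma adjusted p = 0.0583) in Sohlh1 KO and -0.59 (limma adjusted p = 0.210) in Sohlh2 KO. E2f2 passed in Sohlh1 KO in 6 of 30 alternatives. The medians of these 3 lists were between -0.13 and -0.01.

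Of 16 genes that E2F factors switch on for S phase, 5 fell and none rose in Sohlh1 KO, and 4 fell and none rose in Sohlh2 KO. Over all tested probe sets 1.38% passed as lower in Sohlh1 KO and 0.944% in Sohlh2 KO. The list medians were -0.34 and -0.31 against 0.00 over all probe sets in each. Cdc6, which loads the replicative helicase, averaged 424 ± 30.6 in Sohlh1 KO, 508 ± 42.7 in Sohlh2 KO and 729 ± 93.3 in wild type (log2 change -0.76 and -0.51, limma adjusted p = 0.00316 and 0.0449). Gmnn, which encodes the replication licensing inhibitor geminin, averaged 2189 ± 177 in Sohlh1 KO, 2380 ± 277 in Sohlh2 KO and 3384 ± 131 in wild type (log2 change -0.63 and -0.51, limma adjusted p = 0.00270 and 0.0133). Rrm2, a subunit of ribonucleotide reductase, changed by -0.68 in Sohlh1 KO and -0.55 in Sohlh2 KO (limma adjusted p = 0.00279 and 0.0134) and the helicase gene Mcm2 by -0.58 and -0.57 (limma adjusted p = 0.0331 and 0.0416). Rrm1, the other reductase subunit, fell in Sohlh1 KO (-0.41, limma adjusted p = 0.0271). The Cdc6 call in Sohlh2 KO was lost in 19 of 30 alternatives (limma adjusted p up to 0.227), and that of Rrm1 in Sohlh1 KO in 9 (up to 0.0981). The Mcm2 call was lost in 10 of 30 in Sohlh1 KO (up to 0.118) and in 14 in Sohlh2 KO (up to 0.138). In Sohlh2 KO the calls of Gmnn and Rrm2 were lost in 5 each (up to 0.0572 and 0.0594). The proliferation marker Mki67 differed by -0.20 in Sohlh1 KO and 0.07 in Sohlh2 KO and did not pass. The Sohlh2 KO count was 0 when wild type 4, wild type 5 or Sohlh2 KO 4 was left out, and the Sohlh1 KO count was 3 to 8 over the single arrays left out. With all 3 doubted arrays left out it was 8 in Sohlh1 KO and 6 in Sohlh2 KO.

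**Figure D5:**
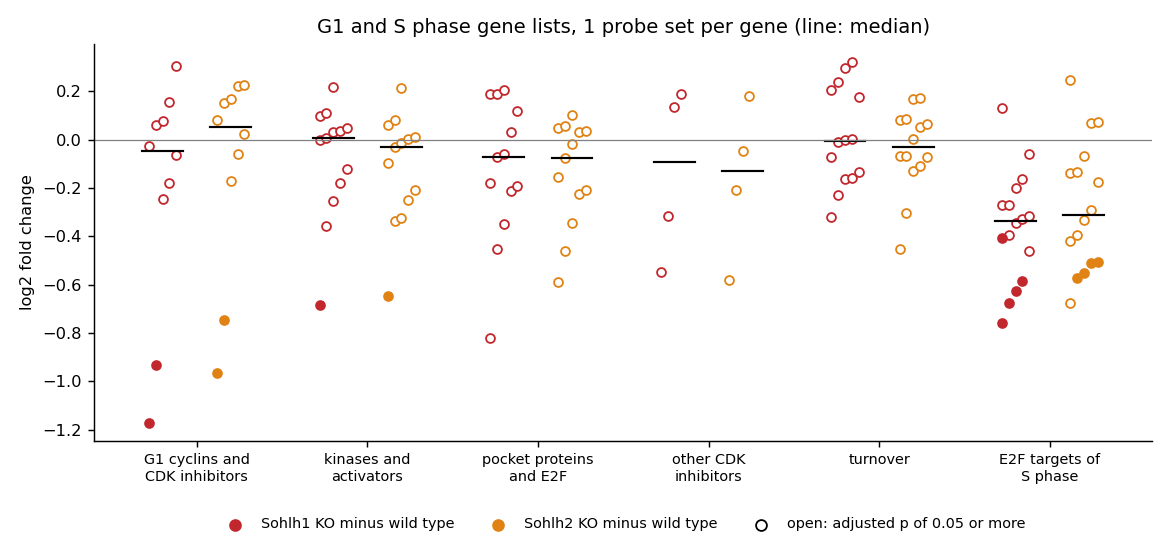
Log2 fold change of each gene, 1 probe set per gene, for the G1 cyclins and CDK inhibitors and 5 lists of the same pathway, Sohlh1 KO minus wild type in red and Sohlh2 KO minus wild type in orange, with the list median as a black line. Filled points passed limma's test at an adjusted p under 0.05: Ccnd1 and Ccne2, Ccna2, and 5 and 4 of the 16 E2F targets.

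Of a list set up as germ cell growth genes upstream of the D-type cyclins, 10 were tested, and their order relative to the cyclins was not tested. Of these 10, 1 fell and 1 rose in Sohlh1 KO and 2 fell and 1 rose in Sohlh2 KO. Kit, the receptor of differentiating spermatogonia, fell by 1.92 on the log2 scale in Sohlh1 KO and by 1.95 in Sohlh2 KO (limma adjusted p = 1.94e-05 and 1.61e-05), with means of 453 ± 91.2 in Sohlh1 KO, 442 ± 76.6 in Sohlh2 KO and 1739 ± 176 in wild type (SD, n = 4 each). Gfra1, a receptor subunit for GDNF on undifferentiated spermatogonia, rose by 0.97 in Sohlh1 KO and 1.01 in Sohlh2 KO (limma adjusted p = 0.00287 and 0.00261), with means of 709 ± 65.1 in Sohlh1 KO, 738 ± 148 in Sohlh2 KO and 355 ± 47.7 in wild type. The smallest call in the list was the transcription factor Dmrt1 in Sohlh2 KO, at -0.32 (limma adjusted p = 0.0352). Leaving out wild type 4 or another single array ended it (limma adjusted p up to 0.124).

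Over the 12 arrays, the genes whose pattern was most like Ccnd1 were Neurog3 (Pearson r = 0.97, log2 scale), at 42.1% and 48.5% of wild type in Sohlh1 KO and Sohlh2 KO, Orc1 (0.97) and Psme3 (0.96). For Ccne2 they were Lrr1 (0.98), Dmrtb1 (0.96), at 16.1% and 21.2% of wild type, and Atp13a3 (0.96). For Ccnd2 they were Stap2 (0.94), Mfsd6 (0.87) and Smim20 (0.84). Neurog3, Orc1, Psme3, Lrr1, Dmrtb1 and Atp13a3 were all lower on average in both mutants, as Ccnd1 and Ccne2 were, and these correlations share the group difference and the arrays.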

How the data were processed

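RNA from 12 pools of testes was measured on Affymetrix arrays. The deposited values are MAS5 signals, linear intensities. The authors used GCOS and MAS5 according to the submitters' processing notes, which name no version. The trimmed mean leaves out 2% of probe sets at each end, and array medians were 76.6 to 90.8. Of 45037 probe sets, 34945 had 1 gene symbol, 932 several and 9160 none. Values were taken as log2(signal + 14.2), the offset being the 20th percentile, so changes of dim probe sets are understated. Probe sets above 48.6, the 40th percentile, on at least 4 arrays were tested. A single limma fit (version 3.58.1, R 4.3.3, trended eBayes) took all 12 arrays with no term but genotype, and Benjamini-Hochberg adjustment ran over all 28694 tested. The brightest probe set stood for a gene in lists and likeness. List genes were named where they passed, up to 6 per list, and Cdk2, Cdk4, Cdk6, E2f2 and Mki67 as genes chosen after their values were seen. The procedure was tested on simulated data with independent normal noise and changes added in Sohlh1 KO only. That simulation held no mislabelled arrays and no arrays of high 3′ to 5′ ratio, so it does not cover the doubted arrays. The alternatives covered scaling, filter, offset, probe sets, arrays, replicate block and fit. The members and lists were chosen with earlier results of these data known. The number of arrays limits the precision.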

Additional observations from a re-analysis of the deposited data

Results flagged for a closer look

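Among 69 sets of 4 arrays (the 23 member probe sets in 3 groups), 6 held an array farther from the others than Dixon's 95% limit for 4 values, which chance passes in about 1 set in 20. For Ccnd2 1416122_at, Sohlh1 KO 4 had 6806 with the nearest array of its group at 6382, and Sohlh2 KO 5 had 6492 with the nearest at 7832. At Ccnd2 1416124_at, Sohlh2 KO 1, an array of high 3′ to 5′ ratio that also went against its label, had 88.1 with the nearest at 292. Ccne2 was 388 on Sohlh1 KO 4 with the nearest at 321, still below every wild-type array. Cdkn2c was 1565 on Sohlh1 KO 2, the other array of high ratio, with the nearest at 1105. The dim Cdkn1a probe set 1421679_a_at was 18.0 on Sohlh1 KO 3 with the nearest at 5.26, both under the detection filter.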

How the results depend on the processing

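Ccnd1 1417420_at and Ccne2 passed in both mutants under all 30 alternatives that gave them a value. The Sohlh1 KO changes were -1.01 to -0.88 for Ccnd1 (limma adjusted p up to 0.00358) and -1.28 to -1.03 for Ccne2 (up to 0.00610). The Sohlh2 KO changes were -0.78 to -0.67 (up to 0.0289) and -1.07 to -0.86 (up to 0.0388). No called value changed sign. Of the other Ccnd1 probe sets in Sohlh1 KO, 1448698_at lost its call in 16 of 29 alternatives (limma adjusted p up to 0.161) and 1417419_at in 5 (up to 0.0617), and the cause was not tested. The 4 members called in Sohlh1 KO became 2 with 1 probe set per gene, with the mean of a gene's probe sets, at an adjusted p under 0.01, and under both replicate blocks, and 2 to 4 with 1 array left out. The 2 called in Sohlh2 KO stayed at 2 to 3, and the count between the mutants stayed at 0. Over all probe sets, the 600 calls of Sohlh1 KO became 335 with the mean of a gene's probe sets, 343 without the trend, 1227 with array weights, 183 at 0.01, and 229 to 1245 with 1 array left out (229 without wild type 6, 1245 without Sohlh2 KO 1). In alternatives added after the data were seen they became 1006 once the 2 high-ratio arrays were dropped and 1201 when the log2 actin 3′ to 5′ ratio entered the fit. The 445 calls of Sohlh2 KO became 293 without the trend, 1075 with weights, 283 with its 2 groups alone, 144 at 0.01, 201 to 506 with 1 array left out, 751 without the high-ratio arrays, 773 without all 3 doubted arrays and 743 with that ratio in the fit. Between the mutants 9 probe sets passed without the 2 arrays against their labels and 11 without all 3. The deviations of same-numbered arrays from their group means correlated at -0.12 to 0.10. Among all arrays of the other groups, wild type 3 and wild type 4 each correlated best with Sohlh2 KO 1, and wild type 5 with Sohlh2 KO 4. Sohlh1 KO 4 did so with Sohlh2 KO 5, and Sohlh1 KO 5 with the same-numbered Sohlh2 KO 5. Whether the numbers pair the samples was not tested further. With the replicate block the counts were 338 for Sohlh1 KO and 98 for Sohlh2 KO, and 401 for Sohlh2 KO when 3-1 was read as 3. Array values give no depth, and probe sets near the detection filter carry the most noise.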

Other observations

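The other 20 cyclin genes with a tested probe set were looked at after their values were seen. In Sohlh1 KO 3 fell and none rose, and in Sohlh2 KO 3 fell and 1 rose, with medians of -0.02 and -0.09. Over all tested probe sets 1.38% passed as lower and 0.707% as higher in Sohlh1 KO, and 0.944% and 0.606% in Sohlh2 KO. Ccng1, an atypical cyclin, had the largest change among them and averaged 853 ± 94.5 in Sohlh1 KO, 937 ± 132 in Sohlh2 KO and 2930 ± 285 in wild type (SD, n = 4 each). Its log2 change was -1.76 (SE 0.12, limma adjusted p = 4.65e-06) in Sohlh1 KO and -1.64 (limma adjusted p = 1.09e-05) in Sohlh2 KO, larger than that of Ccnd1 or Ccne2. Ccnf, an F-box cyclin of S phase and G2, averaged 649 ± 79.2 in Sohlh1 KO, 662 ± 23.1 in Sohlh2 KO and 1154 ± 75.3 in wild type (log2 change -0.82 and -0.79, limma adjusted p = 0.000717 and 0.00112). Both passed under all 30 alternatives. Ccna2, given above, was the third to fall in each mutant.

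Ccnb3, a cyclin of meiotic germ cells, went the other way. It averaged 144 ± 10.6 in Sohlh1 KO, 178 ± 42.0 in Sohlh2 KO and 83.7 ± 17.8 in wild type. Its log2 difference was 0.71 (limma adjusted p = 0.0825) in Sohlh1 KO and 0.97 (limma adjusted p = 0.0227) in Sohlh2 KO. The Sohlh2 KO call was lost in 12 of 30 alternatives (limma adjusted p up to 0.184). Among them were leaving out wild type 3, wild type 4, wild type 6, Sohlh2 KO 4 or Sohlh2 KO 5 (up to 0.0856).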
